A study of Homo sapiens with 2 samples.

Results

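The 8 genes ANKRD1, CTGF (also called CCN2), CYR61 (CCN1), AMOTL2, AXL, AJUBA, LATS2 and YAP1 were chosen by name as YAP1 itself and genes that YAP is known to switch on. All 8 were found among the 57110 gene entries of a long-read single-cell library, each with an entry of its own. The library was made from a pool of IGROV1, SK-OV-3 and COV504, which are established lines grown from human ovarian tumours. The cells were untreated as far as the labels say, and were read as whole cDNA molecules on a nanopore PromethION instrument. An Illumina library of the same pool entered no comparison here.

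YAP1 and its relative TAZ (gene WWTR1) are coactivators that enter the nucleus, bind the TEAD transcription factors and switch on genes for growth, adhesion and matrix. The Hippo pathway holds them back: the kinases STK3 and STK4 with the scaffold SAV1 act on LATS1 and LATS2, which phosphorylate YAP1 and TAZ so that they stay in the cytoplasm. Levels of ANKRD1, CTGF and CYR61 are commonly read as a sign of YAP and TAZ activity, and AMOTL2, AJUBA and LATS2 also act on the pathway itself.

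The labels do not say which line each barcode came from, so barcodes with at least 1000 counts were sorted by 10 marker genes, none of which is among the 8 genes described. A barcode entered a class when 1 marker set held at least 75% of its marker counts. The ERBB2-high class (markers ERBB2, NNMT, TSPAN1 and DHRS2) is SK-OV-3-like and held 648 barcodes with a median of 4953 counts. The RARRES2-high class (RARRES2 and TMEM100) held 473 barcodes with a median of 6262 counts, and the FOLR1-high class (FOLR1, CLDN3, DEFB1 and CXCL14) held 765 with a median of 5289. RARRES2-high rests on only 2 markers, so it and FOLR1-high are called by their genes and not by a line. Of the 2462 barcodes, 1886 entered a class, 243 others had enough counts but no class, and 333 had fewer than 1000 counts. Mitochondrial genes held 2.93%, 3.11% and 7.07% of the counts in ERBB2-high, RARRES2-high and FOLR1-high, and ribosomal protein genes 12%, 15% and 26.7%. CD3E and LYZ, markers of leukocytes, were at 0 in all 3 classes, and PTPRC had 0, 1 and 1 counts. HBB, of red cells, had 0, 1 and 0 counts, and PECAM1, of endothelium, 4, 0 and 8.

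There was 1 library, so no value has a replicate and no test was made. Levels are given as CPM, the estimated counts of a gene scaled to a common total per class, and every interval is a 95% interval that covers counting error only. A level depends on the rest of the counts, so ratios were also taken with mitochondrial and ribosomal protein genes left out of the total. That change moved the median log2 ratio of all genes by over 0.1 for the 2 comparisons with FOLR1-high, from 0.16 to -0.09 for RARRES2-high over FOLR1-high and from 0.37 to 0.08 for ERBB2-high over FOLR1-high.

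The promoter sequences of the members are shown because TEAD factors, through which YAP acts, recognise the letters GGAATG. RefSeq promoters (GRCh38.p14, from 250 bases before to 50 bases after a start site) matched 7 of the 8 members. GGAATG, searched on both strands, was in 14.0% of 35116 promoters, and 3 or more copies were in 0.128%. CTGF held 3 copies, 169, 104 and 95 bases before its start, all inside the stretch chr6:131951374-131951622 on the minus strand. ANKRD1 held 2 copies, 220 and 128 bases before its RefSeq start, and 1.37% of promoters held at least 2. Between the 2 copies, 195 bases before that start, ANKRD1 also held TGATTCA, a match to the letters TGANTCA that AP-1 factors recognise. Those letters were in 7.71% of promoters, and 1.45% held both motifs. The transcript listed for ANKRD1 in the deposited data starts 189 bases before the RefSeq start. Each run below is written 5′ to 3′ on the gene's strand, with the matched letters in capitals (CATTCC is GGAATG on the other strand).
CTGF, chr6:131951374-131951622, minus strand: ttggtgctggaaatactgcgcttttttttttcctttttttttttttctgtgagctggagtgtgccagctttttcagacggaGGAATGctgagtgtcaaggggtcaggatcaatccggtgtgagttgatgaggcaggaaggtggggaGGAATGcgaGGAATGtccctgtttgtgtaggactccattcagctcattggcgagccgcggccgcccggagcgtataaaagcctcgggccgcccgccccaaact
ANKRD1, chr10:90921277-90921337, minus strand: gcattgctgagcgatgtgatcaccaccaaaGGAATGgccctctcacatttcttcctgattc
ANKRD1, chr10:90921264-90921293, minus strand: acatttcttccTGATTCAcatattcagcag
ANKRD1, chr10:90921198-90921227, minus strand: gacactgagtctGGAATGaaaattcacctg
AMOTL2, chr3:134374499-134374528, minus strand: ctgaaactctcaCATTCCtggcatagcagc
AXL, chr19:41226531-41226560, plus strand: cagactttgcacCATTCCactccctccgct
AJUBA, chr14:22976884-22976913, minus strand: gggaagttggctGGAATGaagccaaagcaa
LATS2, chr13:21061560-21061589, minus strand: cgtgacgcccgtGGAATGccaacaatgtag
YAP1, chr11:102110273-102110302, plus strand: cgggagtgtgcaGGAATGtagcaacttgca
In AMOTL2, AXL and AJUBA the match lay before the second RefSeq start site of the gene, and the first site's window held none. The AMOTL2 and AJUBA matches lie inside the first exon of a listed transcript (ENST00000249883 and ENST00000397388). The ANKRD1 copy 128 bases before its RefSeq start likewise lies inside the first exon of its listed transcript. In LATS2 the match lay 9 bases after the start and in YAP1 162 bases before it. A match of letters is a description of the sequence and not a measured site.

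The targets with the sharpest contrast between classes were ANKRD1 and CTGF, both highest in RARRES2-high. ANKRD1 (ENSG00000148677, GRCh38 chr10:90912096-90921276, minus strand) encodes a nuclear and sarcomere-linked ankyrin-repeat protein. It had 384 counts in RARRES2-high, a level of 114 CPM (interval 103 to 126). In ERBB2-high it had 5 counts, or 1.45 CPM (interval 0.472 to 3.39), and in FOLR1-high 20 counts, or 4.43 CPM (interval 2.71 to 6.84). The interval of RARRES2-high lies far above the other two. RARRES2-high was 78.3-fold above ERBB2-high (interval 33.2 to 242) and 25.7-fold above FOLR1-high (interval 16.4 to 42.5). The lower classes rest on 5 and 20 counts. RARRES2, at 1648 CPM in its own class, was at 43.6 CPM in ERBB2-high and 2.44 in FOLR1-high, though as a marker its level there is limited by the class rule. FOLR1-high over ERBB2-high gave a ratio of 3.05 (interval 1.11 to 10.4), and the part of free RNA in these low levels was not tested. A count of ANKRD1 was present in 36.2% of RARRES2-high barcodes (interval 31.8 to 40.7%), against 0.772% of ERBB2-high and 1.70% of FOLR1-high barcodes.

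CTGF (ENSG00000118523, chr6:131948176-131951373, minus strand) encodes a secreted matricellular protein. Its level was 51.8 CPM in RARRES2-high (interval 44.4 to 60.1, 175 counts), 6.68 CPM in ERBB2-high (interval 4.24 to 10.0, 23 counts) and 0.886 CPM in FOLR1-high (interval 0.241 to 2.27, 4 counts). RARRES2-high was thus 7.75-fold above ERBB2-high (interval 5.0 to 12.6) and 58.5-fold above FOLR1-high (interval 22.4 to 217). ERBB2-high was 7.54-fold above FOLR1-high (interval 2.58 to 30.0). The ratios to FOLR1-high rested on 4 counts: they were 117 and 14.5 with Scrublet doublets left out, and 122 and 14.6 as the mean of single barcodes. CTGF was counted in 23.3% of RARRES2-high, 3.55% of ERBB2-high and 0.523% of FOLR1-high barcodes.

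CYR61 (ENSG00000142871, chr1:85580761-85583962, plus strand), a secreted relative of CTGF, was present in every class and had the same class at the top. Its level was 115 CPM in RARRES2-high (interval 104 to 127), 65.3 CPM in FOLR1-high (interval 58.1 to 73.2) and 40.4 CPM in ERBB2-high (interval 33.9 to 47.7). No 2 of these intervals overlap. RARRES2-high was 2.84-fold above ERBB2-high (interval 2.34 to 3.48) and 1.76-fold above FOLR1-high (interval 1.51 to 2.05), a ratio that was 1.42 with mitochondrial and ribosomal protein genes left out. CYR61 and CTGF are from one family, yet FOLR1-high held 295 counts of CYR61 and 4 of CTGF.

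**Figure D1:**
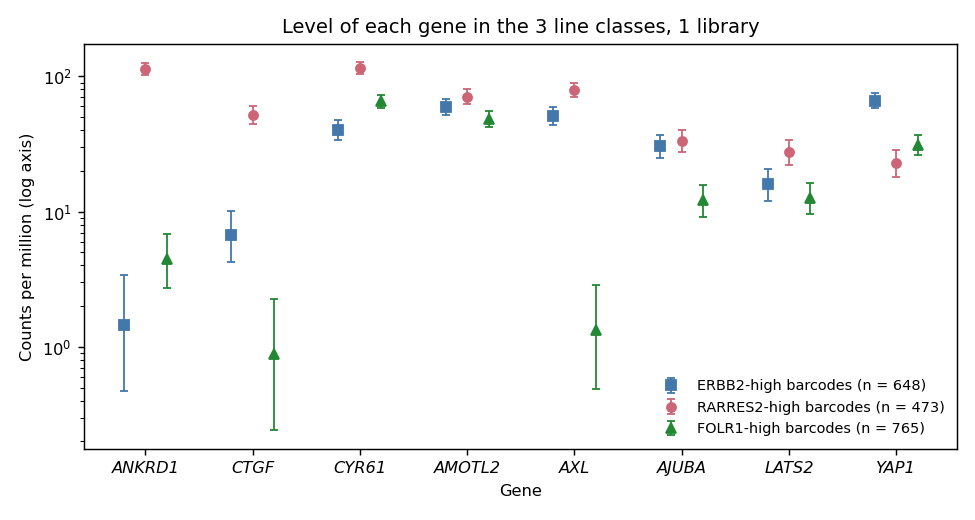
Level of the 8 genes in each class, in CPM on a log axis, with bars for the 95% Poisson interval of the count. ANKRD1 and CTGF are highest in RARRES2-high by a wide margin, AXL is at 1.33 CPM in FOLR1-high against 79.0 in RARRES2-high, and YAP1 is highest in ERBB2-high.

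AXL (ENSG00000167601, chr19:41219203-41261766, plus strand), a receptor tyrosine kinase for GAS6, separated the classes in another way. It was high in RARRES2-high, at 79.0 CPM (interval 69.8 to 89.1), and in ERBB2-high, at 50.8 CPM (interval 43.6 to 59.0). In FOLR1-high it had 6 counts, or 1.33 CPM (interval 0.488 to 2.89). RARRES2-high was 59.5-fold (interval 27.0 to 164) and ERBB2-high 38.3-fold (interval 17.2 to 106) above FOLR1-high, while the 2 high classes were 1.55-fold apart (interval 1.28 to 1.89). The size of the contrast with FOLR1-high rested on those 6 counts. It was 174 for RARRES2-high and 110 for ERBB2-high among barcodes with at least 3000 counts. As the mean of single barcodes it was 16.0 and 10.6.

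AMOTL2, AJUBA and LATS2, the members that act on the Hippo pathway, differed less between classes. AMOTL2 (ENSG00000114019, chr3:134355874-134375479, minus strand), an angiomotin family scaffold that binds YAP, was at 70.8 CPM in RARRES2-high (interval 62.1 to 80.3), 59.6 in ERBB2-high (interval 51.7 to 68.3) and 48.5 in FOLR1-high (interval 42.3 to 55.4). The ratio of RARRES2-high to ERBB2-high was 1.19, with an interval of 0.982 to 1.44 that holds 1. RARRES2-high was 1.46-fold above FOLR1-high (interval 1.21 to 1.76). With mitochondrial and ribosomal protein genes left out this was 1.18, with an interval of 0.978 to 1.42 that holds 1. It was also 1.18 when a class needed 90% of marker counts. ERBB2-high was 1.23-fold above FOLR1-high (interval 1.01 to 1.49), but that ratio was 0.956 with mitochondrial and ribosomal protein genes left out, so the order of these 2 classes depended on the scaling.

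AJUBA (ENSG00000129474, chr14:22971174-22982642, minus strand), a LIM protein that inhibits LATS kinases, was not told apart between RARRES2-high, at 33.5 CPM (interval 27.6 to 40.2), and ERBB2-high, at 30.5 CPM (interval 24.9 to 36.9), with a ratio of 1.10 (interval 0.833 to 1.44) that was 0.975 when a class needed 90% of marker counts. Both were above FOLR1-high, at 12.2 CPM (interval 9.18 to 15.9), by 2.75-fold (interval 1.97 to 3.86) and 2.50-fold (interval 1.79 to 3.54). LATS2 (ENSG00000150457, chr13:20973032-21061547, minus strand), the kinase that phosphorylates YAP, was at 27.5 CPM in RARRES2-high (interval 22.2 to 33.7), 16.0 in ERBB2-high (interval 12.04 to 20.8) and 12.6 in FOLR1-high (interval 9.56 to 16.4). RARRES2-high was 1.72-fold above ERBB2-high (interval 1.22 to 2.45) and 2.18-fold above FOLR1-high (interval 1.55 to 3.09). The lower 2 classes were not told apart for LATS2: their ratio of 1.27 had an interval of 0.858 to 1.87, and it was 0.985 with the other scaling.

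YAP1 (ENSG00000137693, chr11:102110461-102233423, plus strand) had another order of classes than these targets. Its level was lowest in the class where ANKRD1, CTGF and CYR61 were highest: 22.8 CPM in RARRES2-high (interval 18.0 to 28.5, 77 counts), 31.2 in FOLR1-high (interval 26.3 to 36.8, 141 counts) and 66.2 in ERBB2-high (interval 57.9 to 75.4, 228 counts). ERBB2-high was 2.91-fold above RARRES2-high (interval 2.23 to 3.81) and 2.12-fold above FOLR1-high (interval 1.71 to 2.64), and FOLR1-high was 1.37-fold above RARRES2-high (interval 1.03 to 1.83). Its relative WWTR1, which encodes TAZ and was picked out after its values were seen, was highest where YAP1 was lowest, with 194 CPM in RARRES2-high (interval 180 to 210), 126 in ERBB2-high (interval 114 to 139) and 121 in FOLR1-high (interval 111 to 131). The lower 2 classes were not told apart for WWTR1 (ratio 1.04, interval 0.919 to 1.19), and ERBB2-high was at 0.813 of FOLR1-high with the other scaling. These are RNA levels, and where the YAP and TAZ proteins were in the cells was not measured. The pseudogenes YAP1P1 and YAP1P2 and the antisense gene LATS2-AS1 had 0 counts in the library.

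To set the members against all genes, a gene with at least 50 counts in a pair of classes was called when its levels differed at least 2-fold after 5 CPM were added to both. In RARRES2-high against ERBB2-high, 3 of the 8 members were called higher (ANKRD1, CTGF and CYR61) and 1 lower (YAP1). Over all genes tested the background was 10.4% higher and 15.1% lower. Against FOLR1-high, 4 of 8 were called higher (ANKRD1, CTGF, AXL and AJUBA) and 0 lower, with a background of 16.9% and 9.27%. Without mitochondrial and ribosomal protein genes in the total, AJUBA lost its call and the background became 12.9% higher and 14.0% lower. In ERBB2-high against FOLR1-high, 2 of the 6 members tested were called higher (AXL and AJUBA) at a background of 18.5% (7.11% lower), and only AXL was called with the other scaling, at a background of 12.2% higher and 11.1% lower. The median log2 ratio of the members was 0.61, 1.02 and 0.62 in the 3 comparisons, beside -0.18, 0.16 and 0.37 for all genes. RARRES2-high was at least 2-fold above both other classes in 2 of 8 members, ANKRD1 and CTGF, against 6.08% of all genes and 5.80% with the other scaling. ERBB2-high and FOLR1-high were above both others in 0 of 8, against 6.61% and 3.56% of all genes (4.79% and 5.41% with the other scaling).

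The scaling changed the balance of calls over all genes. Of the genes called between RARRES2-high and FOLR1-high, 64.6% were higher in RARRES2-high, and 48.0% without mitochondrial and ribosomal protein genes in the total. For ERBB2-high against FOLR1-high these shares were 72.3% and 52.4%.

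A wider list of YAP target genes, with the 8 members left out, was looked at next. It held 21 further genes known as YAP or TEAD targets, of which 20 had an entry of their own. RARRES2-high was higher than ERBB2-high in 9 of 19 tested, MYOF, ASAP1, CRIM1, FJX1, CCDC80, NT5E, TGFB2, TGM2 and BIRC5, and lower in 2, FOXF2 and GADD45A, beside 10.4% and 15.1% of all genes. GADD45A lost its call with the other scaling. RARRES2-high was higher than FOLR1-high in 14 of 18 and lower in 2, IGFBP3 and NUAK2, beside 16.9% and 9.27%. ERBB2-high was higher than FOLR1-high in 9 of 18 and lower in 2, beside 18.5% and 7.11%. The median log2 ratio of these genes was 0.98, 1.89 and 0.99 in turn. With the other scaling RARRES2-high was higher than FOLR1-high in 12 of 18 and lower in 2, beside 12.9% and 14.0% of all genes, with a median of 1.63 beside -0.09. Of the 20 genes, 8 were highest in RARRES2-high by at least 2-fold over both other classes, beside 6.08% of all genes.

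Each of these 8 genes is given by its level. TGM2, a transglutaminase that crosslinks proteins, was at 670 CPM in RARRES2-high, 111 in ERBB2-high and 31.2 in FOLR1-high. NT5E, the ecto-nucleotidase CD73, was at 194, 59.8 and 0.886 CPM in the same order, and FJX1, a relative of the fly protein four-jointed, was at 24.0, 0.871 and 2.66 CPM. RARRES2-high was 6.02-fold above ERBB2-high for TGM2 (interval 5.40 to 6.72), 3.25-fold for NT5E (interval 2.78 to 3.82) and 27.5-fold for FJX1 (interval 9.09 to 136). BIRC5, the mitotic protein survivin, was at 287, 99.1 and 72.4 CPM. TGFB2, a secreted growth factor, was at 13.3, 2.03 and 0.443 CPM. The other 3 were CRIM1 at 95.6, 35.7 and 18.2 CPM, the ARF GTPase-activating protein ASAP1 at 113, 47.4 and 27.7 CPM, and CCDC80, a matrix protein, at 68.1, 30.2 and 7.31 CPM.

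Targets with their highest level elsewhere were fewer. FOXF2, a forkhead factor of mesenchymal cells, was at 15.4 CPM in ERBB2-high, 1.18 in RARRES2-high and 0.886 in FOLR1-high, and GADD45A, a stress gene, at 232, 111 and 74.0 CPM. With the other scaling GADD45A was not 2-fold above both other classes. IGFBP3, which binds insulin-like growth factors, was highest in FOLR1-high at 357 CPM, against 118 in RARRES2-high and 111 in ERBB2-high. NUAK2, a kinase, was at 17.3, 5.62 and 6.10 CPM in that order. THBS1 (thrombospondin), a secreted target named after its values were seen, lay near AXL and NT5E in pattern, at 131 CPM in RARRES2-high, 66.2 in ERBB2-high and 0.886 in FOLR1-high.

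**Figure D2:**
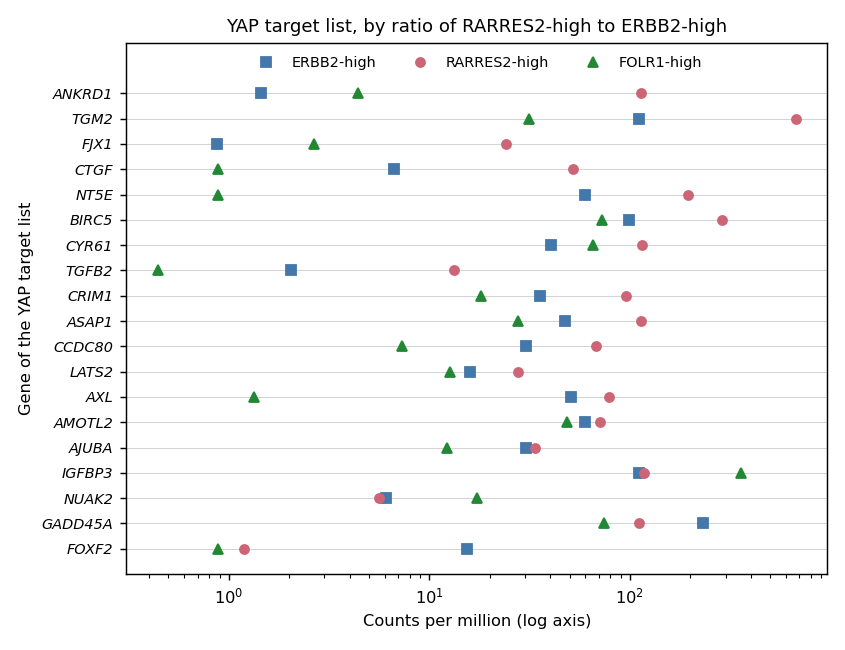
Level in CPM (log axis) in each class of the members in the YAP target list and of the further targets that stood at least 2-fold above both other classes in some class, ordered from the top by the ratio of RARRES2-high to ERBB2-high after 5 CPM were added. ANKRD1 and TGM2 head the order with 114 and 670 CPM in RARRES2-high, and IGFBP3 (357 CPM) and NUAK2 are highest in FOLR1-high.

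Genes of the Hippo pathway itself, its kinases, scaffolds and TEAD factors, were taken as a separate list of 32 without the members. PTPN14, a phosphatase that binds YAP, is in both lists. Here RARRES2-high was higher than ERBB2-high in 0 of 27 tested and lower in 3, SAV1, TEAD2 and FAT1, beside 10.4% and 15.1% of all genes, with a median log2 ratio of -0.26. With the other scaling 1 gene, TEAD4, was higher and 3 were lower, beside 11.5% and 14.7%, and 1 was higher as the mean of single barcodes. It was higher than FOLR1-high in 7 of 26 (NF2, FRMD6, TAOK3, MAP4K4, TEAD1, TEAD4 and PTPN14) and lower in 4 (SAV1, WWC1, TEAD2 and PATJ), beside 16.9% and 9.27%. The median log2 ratio there was 0.04, and -0.19 with the other scaling, beside 0.16 and -0.09 for all genes. Under the other scaling 6 genes were higher and 5 lower, beside 12.9% and 14.0% of all genes. ERBB2-high was higher than FOLR1-high in 7 of 27 and lower in 0, or 5 and 2 with the other scaling, beside 18.5% and 7.11% (12.2% and 11.1% with the other scaling). FAT1, an atypical cadherin that feeds into the pathway, was the 1 gene of the list at least 2-fold above both other classes, at 95.9 CPM in ERBB2-high, 41.7 in RARRES2-high and 32.1 in FOLR1-high. That is 1 of 28 tested, beside 6.61% of all genes. With the other scaling WWC1 and PATJ also stood above both others, in FOLR1-high, beside 5.41%.

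The core kinases and the TEAD factors were looked at singly, as genes chosen after their values were seen. STK3 was at 27.9, 17.8 and 24.1 CPM and STK4 at 49.97, 54.5 and 27.9 CPM in ERBB2-high, RARRES2-high and FOLR1-high. LATS1 was at 29.05, 16.6 and 15.1 CPM, and NF2, the tumour suppressor merlin that activates the pathway, at 62.5, 60.4 and 22.4 CPM. The TEAD genes differed in their order. TEAD1 was at 64.8, 75.5 and 28.6 CPM, TEAD3 at 13.4, 9.77 and 2.44 CPM, and TEAD4 at 18.3, 41.4 and 17.1 CPM. TEAD2 was at 20.9 CPM in ERBB2-high and 22.8 in FOLR1-high but 2.07 in RARRES2-high.

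SAV1, the scaffold of STK3 and STK4, had no count at all in RARRES2-high; it was singled out after its value was seen. It had 106 counts (30.8 CPM) in ERBB2-high and 106 (23.5 CPM) in FOLR1-high. A count of 0 in RARRES2-high allows up to 0.888 CPM (3 counts over the class), so ERBB2-high was at least 34.7-fold and FOLR1-high at least 26.4-fold higher against that floor. The two-sided interval of each ratio, which is wider, starts at 27.7 and 21.1. SAV1 lies at chr14:50633636-50668331, and its neighbours were looked at within 500 kilobases. ATP5S (chr14:50312329-50335558), MAP4K5 (chr14:50418525-50532609) and NIN (chr14:50719763-50831121) were also at 0 in RARRES2-high. In ERBB2-high they were at 14.5, 41.0 and 32.5 CPM, and in FOLR1-high at 14.0, 23.7 and 31.7 CPM. Next to NIN, PYGL (chr14:50857891-50944736) was at 0.888 CPM in RARRES2-high, with 3 counts, against 44.7 CPM in ERBB2-high and 124 in FOLR1-high. The neighbouring genes ATP5S, MAP4K5, SAV1 and NIN were thus all at 0 in the RARRES2-high class and counted in both others. Copy number was not measured, and its part in this was not tested.

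**Figure D3:**
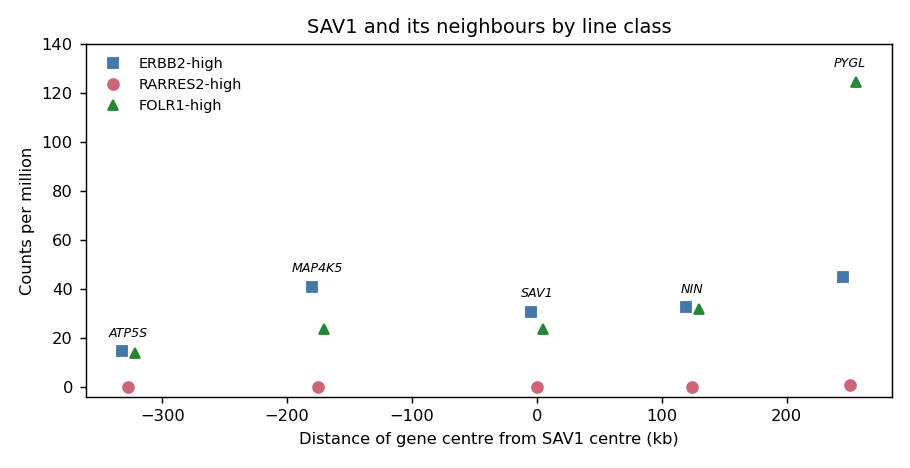
Level in CPM of genes near SAV1 against the distance of their centre from the SAV1 centre in kilobases, by class, with the classes shifted slightly sideways so that points can be told apart. ATP5S, MAP4K5, SAV1 and NIN are at 0 in RARRES2-high, and PYGL is at 0.888 CPM there.

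Within RARRES2-high, ANKRD1 was unevenly spread over barcodes. It had 0 counts in 302 of the 473 barcodes, 1 count in 80, 2 in 41, 3 in 20, 4 in 10 and at least 5 in 20, with a highest value of 8. The highest count in a barcode was 14 for CTGF and 15 for CYR61. Between barcodes of unlike depth the level of ANKRD1 had overlapping intervals. In the shallowest part of the class (158 barcodes) ANKRD1 was at 94.5 CPM (interval 69.7 to 125), in the middle part (157) at 120 CPM (interval 99.8 to 144) and in the deepest (158) at 115 CPM (interval 100 to 132). AMOTL2 was the only member whose intervals did not all overlap. It was at 41.4 CPM (interval 25.6 to 63.2) in the shallowest part and 75.6 CPM (interval 63.7 to 89.2) in the deepest.

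To compare the spread at 1 depth, each barcode was thinned to 2000 counts, which left 443 barcodes of RARRES2-high and dropped 30 that were shallower. ANKRD1 then had a variance 1.60 times its mean, and 15.1% of barcodes had a count. Genes of a like level had a median ratio of 1.04 (2086 genes), and counting error alone gives about 1. CYR61 was next, at 1.47 against 1.05 for 1842 genes of a like level. CTGF stood at 1.14 against 1.02 and AXL at 1.12 against 1.03. AMOTL2, AJUBA, LATS2 and YAP1 lay close to genes of their level, at 1.03, 1.03, 0.95 and 1.04. In FOLR1-high, CYR61 had a ratio of 1.20 against 1.03, and ANKRD1 one of 2.14 against 0.992 that rests on 4 barcodes with a count. In ERBB2-high, LATS2 had a ratio of 1.15 against 0.982.

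**Figure D4:**
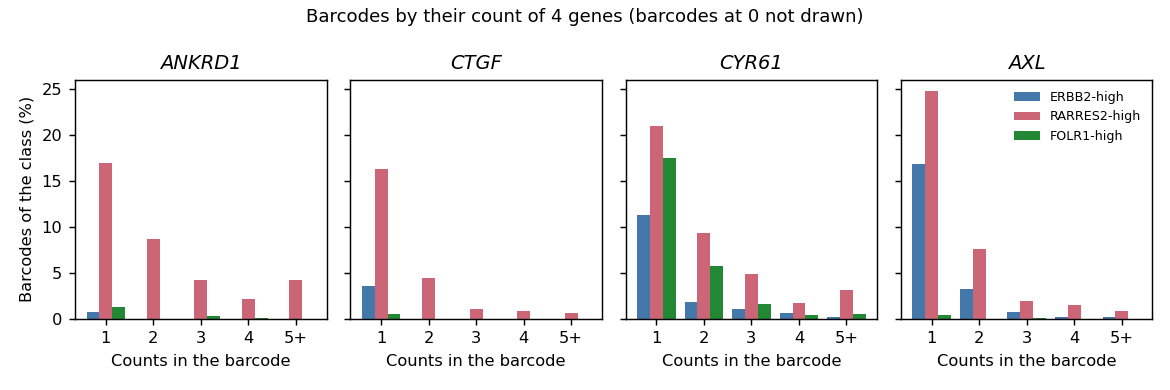
Share of the barcodes of each class (percent, bars from 0) with 1, 2, 3, 4 or at least 5 counts of ANKRD1, CTGF, CYR61 and AXL, without thinning and with barcodes at 0 not drawn. ANKRD1 and CTGF bars are almost all of RARRES2-high, CYR61 has bars in every class, and AXL has almost none in FOLR1-high.

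Correlations between the members from barcode to barcode were weak. Over the 443 thinned RARRES2-high barcodes, Pearson's r between pairs of members ran from -0.05 (YAP1 and LATS2) to 0.14 (CYR61 and ANKRD1) over 28 pairs. The genes most like ANKRD1 by r, out of 2756 genes counted in at least 10% of barcodes, were NMU (0.18), CEACAM6 (0.17), CSNK1A1 (0.17), NSRP1 (0.16), RRBP1 (0.16), LSR (0.16), WDR33 (0.15) and CAMSAP2 (0.15). Of these 8 genes, 0 were among the top 8 when barcodes were thinned to 4000 counts or scaled to the median total. Those 2 settings, which share barcodes, had MMADHC (0.23 and 0.22) and a joined entry of PHACTR2 and AL049844.1 (0.19 and 0.28) in common. At 4000 counts (365 barcodes) CTGF ranked 6 of 4669 genes, with an r of 0.19. At 2000 counts it was counted in 8.80% of barcodes, under the 10% needed, so it could not be ranked there. Counts this sparse and values this weak name no partner of ANKRD1.

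Outside RARRES2-high, ANKRD1 was rare but not evenly so. In ERBB2-high its 5 counts lay in 5 barcodes, 1 of which also held counts of RARRES2 or TMEM100. In FOLR1-high its 20 counts lay in 13 barcodes, none with a count of RARRES2 or TMEM100, markers that the class rule limits there. In that class 3 barcodes with at least 3 counts each held 10 of the 20. Those 3 barcodes had 0 counts of RARRES2 and TMEM100, 0 of TGM2, NT5E and CTGF together, and 2 to 6 counts of FOLR1-high markers. With so few marker counts, the class rule itself leaves little or no room for a count of RARRES2 or TMEM100. Where this ANKRD1 came from was not tested.

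FOLR1-high barcodes were also compared by whether they held CXCL14 or DEFB1, to see how the members varied inside 1 class. With at least 3 counts of both genes together and 75% of them from a single gene, 192 barcodes were CXCL14-led and 87 DEFB1-led, with medians of 4886.5 and 6526 counts. CYR61 was at 101 CPM in CXCL14-led barcodes (interval 82.4 to 122, 106 counts) and 33.3 CPM in DEFB1-led ones (interval 20.6 to 50.8, 21 counts). AMOTL2 was at 65.5 CPM (69 counts) and 23.8 CPM (15 counts). The ratios were 3.03 for CYR61 (interval 1.88 to 5.09) and 2.76 for AMOTL2 (interval 1.56 to 5.19). Of the 3 members with at least 50 counts, these 2 were called higher, against 3.58% of all genes tested, with 5.51% lower. The remaining one, YAP1, was at 36.1 and 44.3 CPM. ANKRD1, CTGF and AXL had 1 count each over both states, LATS2 was at 15.2 and 12.7 CPM, and AJUBA at 9.50 and 14.3 CPM.

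Of 5 further targets tested between these states, 1 was higher in CXCL14-led barcodes and 2 were lower, beside 3.58% and 5.51% of all genes. IGFBP3 was at 841 CPM in CXCL14-led and 71.3 CPM in DEFB1-led barcodes, a ratio of 11.8 (interval 8.74 to 16.3). MYOF, a membrane repair protein, was 3.09-fold higher in DEFB1-led barcodes (interval 2.32 to 4.14), at 223 against 72.2 CPM. TGM2 was 8.64-fold higher in DEFB1-led barcodes (interval 4.48 to 18.3), at 90.3 against 10.4 CPM. EDN1, the precursor of the peptide endothelin, was named after its values were seen and had 24 counts in CXCL14-led and 0 in DEFB1-led barcodes, under the 50 needed for a call.

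**Figure D5:**
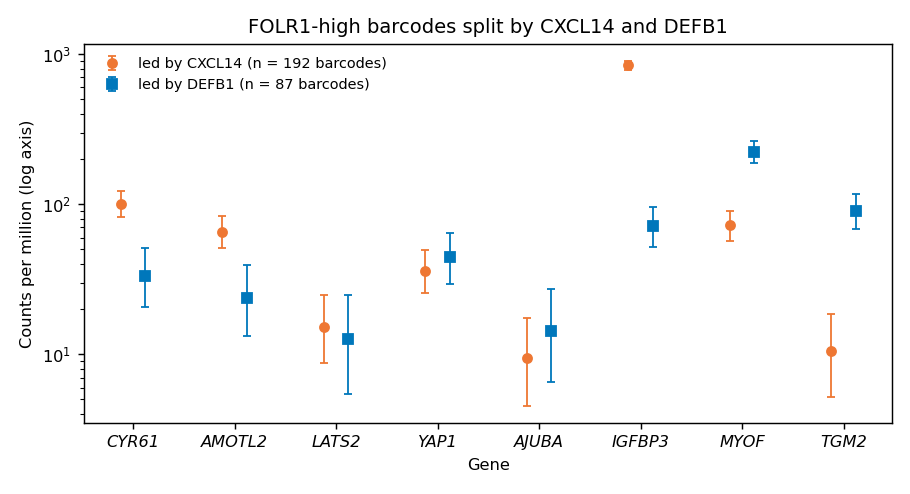
Level in CPM (log axis) of 5 members and 3 further targets in the 192 CXCL14-led and 87 DEFB1-led FOLR1-high barcodes, with bars for the 95% Poisson interval. CYR61, AMOTL2 and IGFBP3 are higher in CXCL14-led barcodes, and MYOF and TGM2 in DEFB1-led ones.

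Long reads also gave the transcripts of the members. ANKRD1, CTGF, CYR61 and LATS2 each had 1 listed transcript, so nothing could be divided. AXL had 3, and 71.7% of its counts came as whole estimates, where a read was given to a single transcript. The full-length form ENST00000301178 held 90.1% of AXL counts in ERBB2-high (interval 84.9 to 94.2%) and 93.0% in RARRES2-high (interval 89.1 to 95.7%). A shorter form, ENST00000359092, which was singled out after its values were seen, held 8.25% (interval 4.44 to 13.1%) and 5.68% (interval 3.18 to 9.10%), so the classes were not told apart. It lacks exon 10 of the 20 exons of the long form (chr19:41239694-41239720, plus strand), a coding exon of 27 bases. The short form also starts and ends inside the long form, with a first exon of 243 bases against 275 and a last exon of 742 against 2214. The skipped exon is printed, all of it in capitals, because it is the coding exon that the forms do not share.
AXL exon 10: GGCAAGCACAGCCAGTCCACCAGCTGG
Counted from whole estimates alone, the share of the short form was 3.13% in ERBB2-high and 3.21% in RARRES2-high.

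AJUBA had 3 listed transcripts, with 34.8% of counts as whole estimates. ENST00000262713 held 68.8% of AJUBA counts in ERBB2-high, 63.8% in RARRES2-high and 63.3% in FOLR1-high. ENST00000397388, which starts later, at chr14:22977223, held 30.4%, 33.4% and 29.7%. The leading form was the same in the 3 classes. AMOTL2 had 3 forms of near-equal share that differ in their first exon. ENST00000249883 also differs from the others in exon 9 (180 bases against 177) and in its last exon (1890 against 1887). ENST00000249883 held 35.3%, 34.4% and 36.3% in ERBB2-high, RARRES2-high and FOLR1-high, ENST00000422605 held 32.9%, 33.9% and 32.7%, and ENST00000514516 held 30.9%, 31.5% and 30.2%. Only 10.1% of AMOTL2 counts were whole estimates, so near-equal shares are also what splitting of unresolved reads would give. For YAP1, with 8 listed transcripts, 7.17% of counts were whole, and its transcripts were not resolved.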

How the data were processed

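The authors deposited a sparse matrix of estimated counts per transcript and cell barcode for the PromethION library. Cell Ranger 6.0.1 and GRCh38 are named in the submitters' processing notes. The aligner, and whether reads were collapsed by molecular identifier, were not given in the sources used here. Estimated counts were summed per gene entry and rounded. The sums were whole within 1e-06. The library held 13052893 counts over 2462 barcodes, with a median of 4914.5. RBMS3 lies in an entry that joins several genes and was left out, and some genes are not reported here.

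The members, marker sets and lists were chosen with earlier results of these data known. Genes were named by a rule: all members, up to 15 genes of each list at least 2-fold above both other classes, transcripts with at least 10% of a gene, and the 8 genes most like ANKRD1. All other genes named, which include list members called between classes and the neighbours of SAV1 and ANKRD1, were chosen after their values were seen. Intervals are exact Poisson (levels), Clopper-Pearson (shares) and conditional binomial (ratios), at 95%. Doublets were left to the marker rule. Scrublet (scanpy 1.11.5, expected rate 0.02) called 77 barcodes, of which 30 were in a class. Exons are from GENCODE release 29. The scripts used numpy 2.4.6 and scipy 1.17.1 and were tested on simulated data. Alternatives changed the marker share, the depth minimum, doublets, the scaling, the averaging, the fold, the count minimum and the thinning depth.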

Additional observations from a re-analysis of the deposited data

Results flagged for a closer look

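ANKRD1 was also present in barcodes that entered no class. The 243 barcodes with at least 1000 counts and no class held 142 counts of ANKRD1, or 88.4 CPM, above its level in ERBB2-high and FOLR1-high, although no comparison used them. Among them, 106 barcodes had more counts of RARRES2-high markers than of either other set and held 130 of those counts, at 152 CPM (interval 127 to 181). The 34 led by FOLR1-high markers held 11 counts, at 40.2 CPM (interval 20.1 to 72.0). The 38 led by ERBB2-high markers held 0, the 30 tied between sets 1, and the 35 with no marker count 0. Scrublet called 37 of the 243 barcodes, and the part of doublets in these values was not tested.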

How the results depend on the processing

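ANKRD1 was 78.3-fold higher in RARRES2-high than in ERBB2-high and 25.7-fold higher than in FOLR1-high, and both ratios kept their direction under every alternative run, between 59.8 and 115 and between 17.8 and 36.9. The further YAP targets higher in RARRES2-high than in ERBB2-high numbered 9, and 3 when a 3-fold difference was required, beside 4.70% of all genes, a stricter limit by construction. The variance of ANKRD1 was 1.60 times its mean at 2000 counts per barcode and 1.18 at 1000, where fewer counts bring the ratio toward 1 by construction. Among the members' ratios with an interval apart from 1, AMOTL2 in ERBB2-high over FOLR1-high was the 1 that turned, to 0.956 without mitochondrial and ribosomal protein genes. Of their ratios whose interval holds 1, LATS2 in ERBB2-high over FOLR1-high crossed 1 there (0.985), and AJUBA in RARRES2-high over ERBB2-high did at 90% of marker counts (0.975) and as the mean of single barcodes (0.995). AXL in RARRES2-high over FOLR1-high was 267 and in ERBB2-high over FOLR1-high 181 where barcodes needed at least 5 marker counts, a setting chosen after seeing the data. The 2 further targets lower in RARRES2-high than in ERBB2-high were 0 when a class needed 90% of marker counts. For the Hippo list, a 1.5-fold limit gave 3 genes higher and 10 lower in RARRES2-high than in ERBB2-high (0 and 3 at 2-fold), beside 18.7% and 30.2% of all genes. It gave 13 higher and 3 lower in ERBB2-high than in FOLR1-high (7 and 0), beside 37.6% and 13.1%. A 3-fold limit gave 2 higher in RARRES2-high (7) and 1 higher in ERBB2-high (7) than in FOLR1-high, beside 8.15% and 7.19%. The variance of CYR61 was 1.12 times its mean at 1000 counts. Beside the ANKRD1 values above and the counts of 9 and 14 further targets higher in RARRES2-high, 203 values stayed within their counting interval or a count within 1.5 times, 30 moved by more and 1 was the AMOTL2 ratio. No paired analysis was possible because there was 1 library. Depth limits the values of few counts, above all ANKRD1 in ERBB2-high (5 counts), CTGF in FOLR1-high (4) and AXL in FOLR1-high (6).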

Other observations

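Genes within 500 kilobases of ANKRD1 on chromosome 10 with at least 20 counts were taken as its neighbours. RPP30, a subunit of ribonuclease P, was at 20.6 CPM in ERBB2-high, 45.0 in RARRES2-high and 38.1 in FOLR1-high. PCGF5, a Polycomb group protein, was at 17.4, 20.4 and 2.66 CPM in the same order.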
